A study of Mus musculus with 4 samples.

Results

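The SOX family of transcription factors was followed across 4 RNA libraries of iMOP cells, which are immortalized mouse otic progenitors, the precursors of the inner ear. Its 10 members here were listed by gene symbol and comprised the SOXB genes Sox1, Sox2, Sox3 and Sox21, the SOXC genes Sox4 and Sox11, the SOXD genes Sox5 and Sox6, and the SOXE genes Sox8 and Sox9. All 10 were found among the 49997 gene rows of the deposited files. Cells labelled iMOP-derived neurons were kept in Neurobasal medium with N21 supplement, L-glutamine and 1 µM K03861, which blocks the cell cycle kinase CDK2. Cells labelled proliferating were kept in DMEM/F12 with N21, carbenicillin and 20 ng/ml bFGF, a growth factor. Both groups carried the wild-type genotype and came from the same line, and the labels give no time in either medium. Each group had 2 libraries, numbered 1 and 2, and nothing in the labels says that they came from separate cultures. The p-values therefore measure the spread between these libraries alone.

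SOX proteins bind DNA through a domain called the HMG box and bend it, and the subgroups differ in what surrounds that box. SOXB1 proteins (Sox1, Sox2, Sox3) keep neural and otic progenitors undifferentiated, whereas the SOXB2 protein Sox21 acts as a repressor that works against them, as shown in chick. The SOXC proteins Sox4 and Sox11 are activators of newly born neurons and drive genes such as Tubb3. SOXD proteins have no activation domain of their own and often act beside SOXE proteins, for example in cartilage. SOXE proteins specify glia and cartilage, and Sox9 also acts in the early otic placode.

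The feature that makes these genes a family, and that could make their reads hard to tell apart, is the HMG box. The 30-base stretch of the Sox2 transcript that came closest to all 9 other members lay in coding sequence in every member. It is shown from the GENCODE M21 transcripts (GRCm38) in the sense direction, with capitals for bases that differ from Sox2.
Sox2, chr3:34650541-34650570, + strand: cgtcaagaggcccatgaacgccttcatggt
Sox1, chr8:12396510-12396539, + strand: GgtcaagCggcccatgaacgccttcatggt
Sox3, chrX:60892973-60893002, - strand: cgtcaagCgAcccatgaacgcGttcatggt
Sox21, chr14:118235586-118235615, - strand: cgtcaagCggcccatgaacgccttcatggt
Sox4, chr13:28952819-28952848, - strand: cAtcaagCggcccatgaacgccttTatggt
Sox11, chr12:27342236-27342265, - strand: cAtcaaACggcccatgaacgccttcatggt
Sox5, chr6:143841251-143841280, - strand: cAtAaagCgTccAatgaaTgccttcatggt
Sox6, chr7:115489740-115489769, - strand: cAtcaagCgAccAatgaaTgcGttcatggt
Sox8, chr17:25570200-25570229, - strand: cgtGaagCggcccatgaaTgccttcatggt
Sox9, chr11:112782896-112782925, + strand: cgtcaagCgAcccatgaacgccttcatggt
Sox21 differed from Sox2 at 1 of these bases, Sox1 and Sox9 at 2, Sox3, Sox4, Sox11 and Sox8 at 3, and the SOXD genes Sox5 and Sox6 at 6. Exact sharing was short. Of the 25-base words of Sox2, 1.48% occurred in another member, against 1.52% for Sox3, 1.15% for Sox1, 0.503% for Sox4 and 0.41% for Sox11, and no 50-base word of any member occurred in another. Read length and the handling of multiply mapped reads remain not given in the sources used here.

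The libraries differed in depth and in more than their labels. Ribosomal RNA and rRNA-like genes took 88.2% to 98.1% of the counts, and 292302 to 3241915 counts per library remained outside them. CPM values below are counts per 1000000 of those remaining counts. A count of 0 then allows, at 3 counts, up to 0.925 and 4.86 CPM in neuron libraries 1 and 2, and up to 10.3 and 4.88 CPM in proliferating libraries 1 and 2. Across genes, log2 CPM correlated at 0.822 and 0.835 between libraries of the same number and at 0.608 and 0.556 between libraries of the same label, so values are also given within each number. The labels do not say what the numbers stand for. Markers went against the labels. Summed over 10 division markers, the level was 2405 and 3561 CPM in the neuron libraries, against 277 and 623 CPM in the proliferating libraries, and 9 of the 10 were higher in the neuron library within both numbers. Over 12 neuron markers it was 1707 and 1190 CPM in the neuron libraries, against 2624 and 2545 CPM in the proliferating libraries, and 6 of the 8 tested were lower in the neuron library within both numbers. Of all tested genes, 26.4% were higher and 26.3% lower in the neuron library within both numbers. The words neuron and proliferating are the labels' own throughout. Whether labels or files were exchanged was not tested, and an exchange of the 2 labels would turn the sign of every ratio and fold change given here. Of the otic markers, Pax2, Pax8, Gata3 and Tbx1 had between 0 and 5 counts in every library, so these defining markers were at or near 0. All 12 otic markers, Sox2 among them, summed to 1175 and 597 CPM in the neuron libraries, against 1286 and 1419 CPM in the proliferating libraries, with 0 called. Hair cell markers, with Pou4f3 and Otof at 0 counts everywhere, summed to 107 and 139 CPM in the neuron libraries, against 318 and 114 CPM in the proliferating libraries. Most of that sum was Myo6, at 76.2 and 126 CPM in the neuron libraries, against 301 and 97.7 CPM in the proliferating libraries. Mesenchyme markers summed to 31.8 and 29.1 CPM in the neuron libraries, against 17.1 and 39.1 CPM in the proliferating libraries. Most of the mesenchyme sum was Tbx18, at 21.0 and 25.9 CPM in the neuron libraries, against 13.7 and 34.2 CPM in the proliferating libraries. Immune markers summed to 6.79 and 1.62 CPM in the neuron libraries, against 13.7 and 0 CPM in the proliferating libraries. The part of these differences in the results on SOX genes was not tested.

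Most SOX transcripts were less abundant in the libraries labelled neuron. Summed over the 10 genes, the level was 2441 and 2279 CPM in the neuron libraries, against 3958 and 4197 CPM in the proliferating libraries. For 6 of the 10 (Sox2, Sox21, Sox4, Sox11, Sox8 and Sox9) both neuron libraries lay below both proliferating libraries. That held for 7.47% of the 11518 tested genes outside ribosomal RNA, and for 12.7% of the 4180 genes with at least 10 counts in every library, where it held for 6 of the 8 members that reached that level. Within both numbers 7 members had a lower CPM in the neuron library, against 26.3% of tested genes, although Sox3 counted among them with only 0 against 1 count in number 2. With TMM scaling (edgeR's trimmed mean) 6 members did, without Sox11, against 21.3% of tested genes. For no member did both neuron libraries lie above both proliferating libraries, against 13.2% of tested genes. In the edgeR comparison no member passed the threshold of an adjusted p under 0.05 (0 higher and 0 lower), and no gene of the 11525 tested did (0% in either direction). An unadjusted p under 0.05 was reached by 130 genes there, and by 191 of 23768 genes in DESeq2, which also called 0. With 2 libraries against 2, an exact permutation test of a single gene cannot give a p below 0.333. Fewer cells of a type and less RNA per cell cannot be told apart in these bulk libraries.

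**Figure D1:**
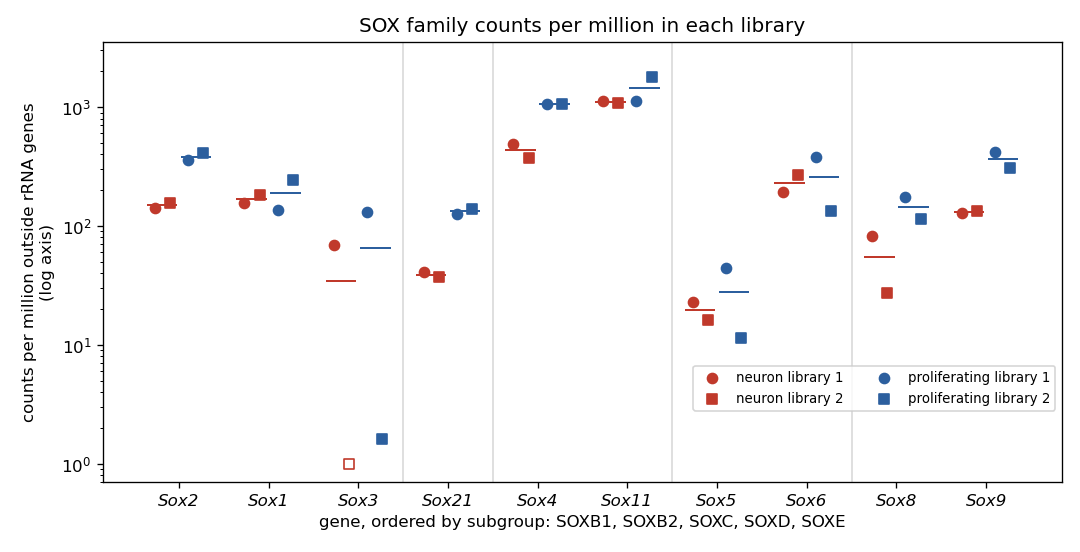
CPM outside ribosomal RNA genes (log axis) of the 10 SOX genes, with neuron libraries in red on the left of each gene and proliferating libraries in blue on the right; circles are libraries numbered 1, squares are libraries numbered 2, short lines are means and the open square at 1 stands for a count of 0. Sox2, Sox21, Sox4, Sox11, Sox8 and Sox9 have both red points below both blue points, while Sox1, Sox3, Sox5 and Sox6 overlap.

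Sox2, which marks otic and neural progenitors, had 463 and 97 counts in neuron libraries 1 and 2, against 105 and 250 counts in proliferating libraries 1 and 2. Scaled, these were 143 and 157 CPM in the neuron libraries, against 359 and 407 CPM in the proliferating libraries. The groups did not overlap, and the means of 149.9 ± 10.02 and 383 ± 33.7 CPM (SD, n = 2 each) lay further apart than either spread. Its log2 ratio, neuron over proliferating, was -1.33 within number 1 (95% counting interval -1.64 to -1.01) and -1.37 within number 2 (-1.73 to -1.03). These intervals cover counting error only. The edgeR log2 fold change was -1.26 (SE 0.98, adjusted p = 1.0).

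Of the other SOXB genes, the repressor gene Sox21 followed the same order at a lower level. It had 132 and 23 counts in neuron libraries 1 and 2, against 37 and 85 counts in proliferating libraries 1 and 2. That is 40.7 and 37.2 CPM in the neuron libraries, against 127 and 138 CPM in the proliferating libraries, without overlap. The log2 ratio was -1.64 within number 1 (-2.17 to -1.07) and -1.89 within number 2 (-2.63 to -1.22). Its edgeR log2 fold change of -1.69 (SE 1.00, adjusted p = 1.0) was the lowest of the 10 members. Sox1, a progenitor gene related to Sox2, had 506 and 113 counts in the neuron libraries, against 40 and 150 counts in the proliferating libraries. At 156 and 183 CPM in the neuron libraries and 137 and 244 CPM in the proliferating libraries, the groups overlapped. The log2 ratio of Sox1 was 0.19 within number 1 (-0.28 to 0.69) and -0.42 within number 2 (-0.78 to -0.06), and its edgeR log2 fold change was -0.10 (SE 0.97, adjusted p = 1.0).

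Sox3, the X-linked SOXB1 gene, differed more by library number than by label. It had 223 counts in neuron library 1 and 0 in neuron library 2, against 38 in proliferating library 1 and 1 in proliferating library 2. That is 68.8 CPM in neuron library 1 against 130 CPM in proliferating library 1, where the log2 ratio was -0.92 (-1.42 to -0.38), and no ratio can be given within number 2. The GC content of its transcript was 66.4%, the highest of the 10 members, which ranged down to 44.8% for Sox5, and the median of all tested genes was 49.3%. Of the tested genes, 94.1% had a GC value. The part of GC content in the Sox3 values was not tested.

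**Figure D2:**
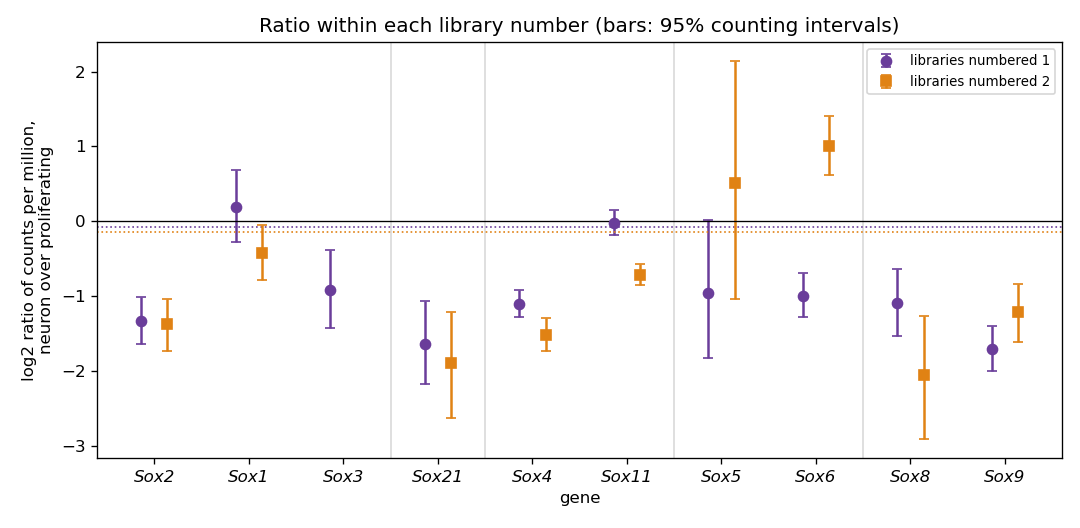
Log2 ratio of CPM, neuron over proliferating, for each SOX gene among the libraries numbered 1 (purple circles) and those numbered 2 (orange squares), with 95% counting intervals as bars. Dotted lines give the median ratio of genes with at least 10 counts in both libraries, -0.07 in number 1 and -0.15 in number 2; Sox2, Sox21, Sox4, Sox8 and Sox9 lie below both lines in both numbers, and Sox3 has no value in number 2.

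The SOXC genes were the most abundant members by count, and they differed from each other. Sox4 had 1596 and 231 counts in neuron libraries 1 and 2, against 309 and 655 counts in proliferating libraries 1 and 2. That gave 492 and 374 CPM in the neuron libraries, against 1057 and 1066 CPM in the proliferating libraries, whose 2 values nearly coincided. The means were 433 ± 83.8 CPM and 1062 ± 6.25 CPM (SD, n = 2 each), and the groups did not overlap. The log2 ratio of Sox4 was -1.10 within number 1 (-1.28 to -0.92) and -1.51 within number 2 (-1.73 to -1.29). Its edgeR log2 fold change was -1.22 (SE 1.03, adjusted p = 1.0).

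Sox11, the other activator of newborn neurons, had 3618 and 669 counts in neuron libraries 1 and 2, against 331 and 1090 counts in the proliferating libraries. The neuron libraries were nearly equal at 1116 and 1083 CPM, against 1132 and 1774 CPM in the proliferating libraries. The groups did not overlap, but neuron library 1 and proliferating library 1 differed by less than counting error. The log2 ratio was -0.02 within number 1 (-0.18 to 0.15), or 0.04 with TMM scaling, and -0.71 within number 2 (-0.85 to -0.57). The edgeR log2 fold change was -0.34 (SE 1.08, adjusted p = 1.0), and it was 0.17 without proliferating library 2.

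Sox2, Sox4 and Sox11 had the highest levels per length of the 10 genes in every library, and their promoters are printed for that reason. RefSeq windows on GRCm38.p6, from 250 bases before to 50 bases after the start, matched 8 of the 10 members, all but Sox3 and Sox9. Capitals mark every match, on either strand, to the SOX core motifs ACAAAG and ACAATG, to the octamer ATGCAAAT bound by POU factors, which partner SOX proteins, and to CCAAT.
Sox2 promoter, chr3:34649745-34650044, + strand: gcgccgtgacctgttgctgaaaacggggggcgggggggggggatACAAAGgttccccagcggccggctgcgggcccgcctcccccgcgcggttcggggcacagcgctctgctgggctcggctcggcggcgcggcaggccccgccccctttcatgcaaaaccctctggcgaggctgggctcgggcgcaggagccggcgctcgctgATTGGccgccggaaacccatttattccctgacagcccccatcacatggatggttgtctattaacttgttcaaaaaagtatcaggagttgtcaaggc
Sox4 promoter, chr13:28953650-28953949, - strand: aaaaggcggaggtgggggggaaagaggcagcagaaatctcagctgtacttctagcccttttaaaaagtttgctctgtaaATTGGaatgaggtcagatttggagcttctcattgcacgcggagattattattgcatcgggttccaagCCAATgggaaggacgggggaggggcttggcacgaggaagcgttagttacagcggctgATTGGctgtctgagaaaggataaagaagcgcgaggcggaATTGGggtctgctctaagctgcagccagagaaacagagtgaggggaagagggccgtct
Sox11 promoter, chr12:27342669-27342968, - strand: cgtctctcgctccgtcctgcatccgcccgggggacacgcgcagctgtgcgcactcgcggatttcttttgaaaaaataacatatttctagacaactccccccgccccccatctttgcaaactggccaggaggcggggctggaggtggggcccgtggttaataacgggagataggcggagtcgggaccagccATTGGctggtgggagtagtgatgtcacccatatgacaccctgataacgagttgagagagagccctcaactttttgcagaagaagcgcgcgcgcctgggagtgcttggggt
The Sox2 window held 1 match to ACAAAG, found in 18.7% of the 32851 RefSeq windows, and 1 to CCAAT, found in 37.4%. Sox4 held 4 matches to CCAAT and Sox11 held 1. ACAATG, found in 12.6% of all windows, was matched in windows of Sox5 and Sox6, and the octamer, found in 1.74%, in that of Sox1. The motifs do not overlap each other in these 3 windows. The windows of Sox21 and Sox8 held none of the 4 letter strings. A match is a description of the letters and not a bound site.

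Both SOXE genes were lower in both neuron libraries. Sox9, which acts in the otic placode, in glia and in cartilage, had 417 and 82 counts in neuron libraries 1 and 2, against 122 and 189 counts in the proliferating libraries. At 129 and 133 CPM the neuron libraries differed little, and the proliferating libraries had 417 and 308 CPM. The means were 131 ± 2.89 CPM and 363 ± 77.6 CPM (SD, n = 2 each). Its log2 ratio was -1.70 within number 1 (-1.99 to -1.40) and -1.21 within number 2 (-1.60 to -0.83), and the edgeR log2 fold change was -1.35 (SE 0.97, adjusted p = 1.0).

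Sox8, the close relative of Sox9, had 265 and 17 counts in neuron libraries 1 and 2, against 51 and 70 counts in the proliferating libraries. The groups did not overlap, at 81.7 and 27.5 CPM in the neuron libraries and 175 and 114 CPM in the proliferating libraries, but the neuron libraries differed more from each other than those of Sox9. The log2 ratio was -1.09 within number 1 (-1.53 to -0.63) and -2.05 within number 2 (-2.91 to -1.27), with an edgeR log2 fold change of -1.35 (SE 1.00, adjusted p = 1.0). Glia markers, of which Sox10 and Mog had 0 counts in every library, summed to 340 and 348 CPM in the neuron libraries, against 934 and 430 CPM in the proliferating libraries. Of those 12 markers 5 were tested, and with the library number edgeR called 1 higher and 2 lower, against 0.364% and 0.13% of all tested genes. The higher one was Aqp4, a water channel of astrocytes, with 277 and 162 counts in the neuron libraries against 16 and 3 counts in the proliferating libraries (log2 fold change 2.89, SE 0.78, edgeR adjusted p = 0.049 with the library number). With a GC correction added, Aqp4 missed the threshold (log2 fold change 2.16, edgeR adjusted p = 0.231). The part of these markers in the SOXE values was not tested.

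The SOXD genes had opposite orders in the 2 numbers. Sox6 had 620 and 166 counts in neuron libraries 1 and 2, against 111 and 82 counts in proliferating libraries 1 and 2. The neuron libraries had 191 and 269 CPM, against 380 and 133 CPM in the proliferating libraries, so the neuron values lay between the proliferating ones. Within number 1 the log2 ratio was -0.99 (-1.28 to -0.69), and within number 2 it was 1.01 (0.62 to 1.41), each outside counting error. The edgeR log2 fold change across both numbers was 0.06 (SE 0.99, adjusted p = 1.0). Sox5 had 74 and 10 counts in the neuron libraries, against 13 and 7 counts in the proliferating libraries. Its log2 ratio was -0.96 within number 1 (-1.82 to 0.01) and 0.51 within number 2 (-1.04 to 2.14), so neither ratio was outside counting error. The CPM values of Sox5 were 22.8 and 16.2 in the neuron libraries, against 44.5 and 11.4 in the proliferating libraries, and its edgeR log2 fold change was -0.33 (SE 1.22, adjusted p = 1.0).

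Because the libraries differed by number, edgeR was also fitted with the library number as a term, which left the SOX genes at much the same fold changes with smaller errors. With 4 libraries, that fit has little left to estimate the spread of each gene. Its errors and calls therefore rest largely on spread that edgeR shares across genes. Over all genes this fit called 42 higher (0.364% of those tested) and 15 lower (0.13%), and it called 0 SOX members in either direction. An unadjusted p under 0.05 with a lower value in the neuron libraries was reached by 5 members (Sox2, Sox21, Sox4, Sox8 and Sox9), against 2.15% of the tested genes. Their log2 fold changes were -1.26 for Sox2 (SE 0.60, adjusted p = 0.545 in edgeR), -1.66 for Sox21 (SE 0.65, adjusted p = 0.346), -1.21 for Sox4 (SE 0.59, adjusted p = 0.579), -1.44 for Sox8 (SE 0.65, adjusted p = 0.489) and -1.36 for Sox9 (SE 0.60, adjusted p = 0.48). The remaining 5 members lay between -1.01 for Sox3 (SE 0.93) and 0.09 for Sox6 (SE 0.62). The median of the 10 members was -1.11, against 0.07 over all tested genes. With group alone it was -1.01, against 0.09.

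**Figure D3:**
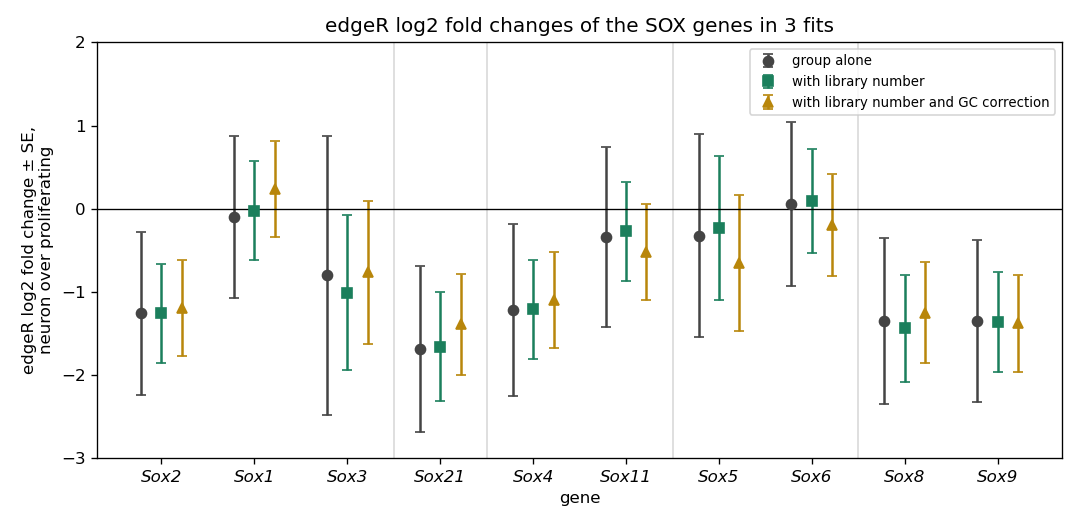
edgeR log2 fold change, neuron over proliferating, of each SOX gene in 3 fits: group alone (grey circles), with the library number (green squares) and with the library number and a GC correction (yellow triangles), with bars of 1 SE. Sox2, Sox21, Sox4, Sox8 and Sox9 stay between -1.69 and -1.10 in all 3 fits, and Sox1 and Sox6 change sign between them.

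With a GC correction added to the library number, 27 genes were called higher (0.234%) and 22 lower (0.191%), again with 0 SOX members. The values were -1.19 for Sox2 (SE 0.58), -1.39 for Sox21 (SE 0.61), -1.10 for Sox4 (SE 0.57), -1.25 for Sox8 (SE 0.60) and -1.38 for Sox9 (SE 0.59). The smallest adjusted p among the 10 members in that edgeR fit was 0.517, for Sox9. Sox1, at 56.9% GC, had 0.24 (SE 0.57) there, against -0.02 (SE 0.60) with the library number alone.

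For several of these genes the 2 libraries of a group lay close together. Among the 4180 genes with at least 10 counts in every library, the median absolute log2 ratio of library 1 to library 2 was 0.88 in the neuron group and 0.86 in the proliferating group. Sox2 had 0.14 in the neuron group and 0.18 in the proliferating group, and Sox21 had 0.13 in both. Sox4 had 0.40 in the neuron group and 0.01 in the proliferating group, where 0.598% of genes had a smaller value. Sox9 had 0.05 and Sox11 0.04 in the neuron group, against 0.44 and 0.65 in the proliferating group. Sox6 in the proliferating group, at 1.51, and Sox8 in the neuron group, at 1.57, were above the median gene. Sox3 and Sox5 did not reach 10 counts in every library and are not among the 4180 genes. In the proliferating group their log2 ratios of library 1 to library 2 were 6.32 and 1.96, wider than for the other members. In the neuron group that of Sox5 was 0.496, and Sox3 had none because of its count of 0.

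Ratios between members within a library do not depend on scaling between libraries. Sox11 made up 45.7% and 47.5% of the counts of the 10 genes in neuron libraries 1 and 2 (95% Clopper-Pearson intervals 44.6 to 46.8 and 44.9 to 50.2). In proliferating libraries 1 and 2 it made up 28.6% and 42.3% (26.0 to 31.3 and 40.4 to 44.2). Sox2 made up 5.85% and 6.89% in the neuron libraries, against 9.08% and 9.69% in the proliferating libraries. For each Sox11 count there were 0.128 and 0.145 Sox2 counts in the neuron libraries, against 0.317 and 0.229 in the proliferating libraries. The same ratio for Sox4 was 0.441 and 0.345 in the neuron libraries, against 0.934 and 0.601 in the proliferating libraries. Relative to Sox11, 4 of the 9 other members (Sox2, Sox21, Sox4 and Sox9) were lower in both neuron libraries than in both proliferating libraries, as were 2.91% of tested genes. Sox1 had the opposite order, with 0.14 and 0.169 counts per Sox11 count in the neuron libraries, against 0.121 and 0.138 in the proliferating libraries. That order is narrow, as neuron library 1 and proliferating library 2 nearly coincided. No interval of these ratios and no share of genes with that order was computed. Sox11 was taken as the base after the values were seen.

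**Figure D4:**
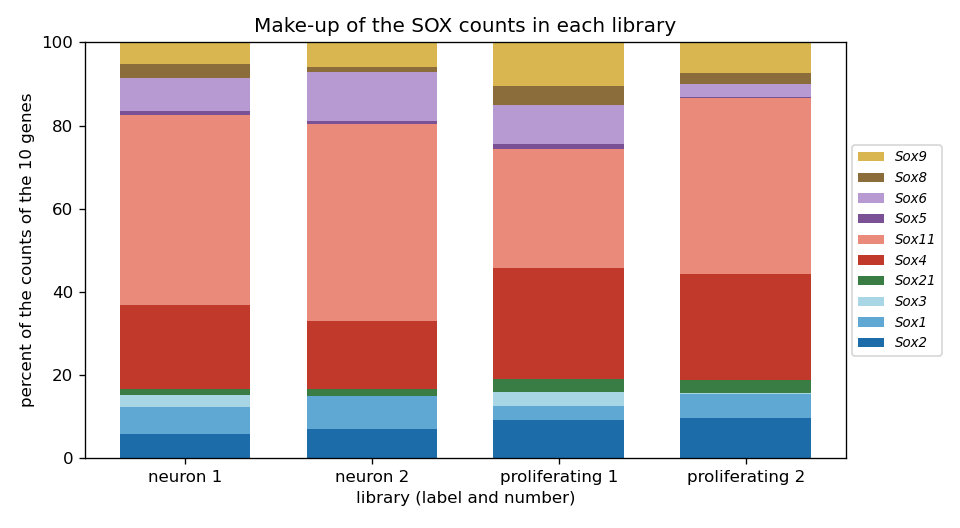
Percent of the summed counts of the 10 SOX genes that each gene holds, 1 bar per library, neuron libraries on the left and proliferating libraries on the right. Sox11 and Sox4 fill most of every bar; Sox11 holds 45.7% and 47.5% in the neuron libraries, against 28.6% and 42.3% in the proliferating libraries.

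Levels between genes were compared per kilobase of exon length implied by the authors' RPKM values, as CPM per kilobase. In the neuron libraries the order began with Sox11 (132 and 128), Sox4 (103 and 78.2) and Sox2 (57.9 and 63.6). In the proliferating libraries it began with Sox4 (221 and 223), followed by Sox2 (146 and 165) and Sox11 (134 and 209.9), which changed places between the 2 libraries. Sox9 came next there, at 101 and 74.2, while in the neuron libraries it had 31.0 and 32.0 and lay below Sox1 (38.7 and 45.3). The deposited RPKM values of Sox2, which are also divided by the ribosomal counts, were 6.84 and 4.70 in the neuron libraries, against 13.5 and 3.08 in the proliferating libraries. The position of Sox6 depends on the gene model. The authors' lengths imply 87119 exonic bases for Sox6 and 22635 for Sox5, against 14832 and 14376 in GENCODE M21. On the GENCODE length Sox6 had 12.9 and 18.1 CPM per kilobase in the neuron libraries, and on the authors' length 2.20 and 3.08.

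SOX genes outside the 10 mostly had no counts. Of 10 further family members, 7 (Sox7, Sox10, Sox14, Sox15, Sox17, Sox30 and Sry) had 0 counts in every library, and Sox18 had at most 12. The other 2 were tested, with 0 called in edgeR with group alone or with the library number. Sox12, the third SOXC gene, had 437 and 3 counts in neuron libraries 1 and 2, against 34 and 11 counts in proliferating libraries 1 and 2. At 135 and 4.86 CPM in the neuron libraries and 116 and 17.9 CPM in the proliferating libraries, Sox12 differed by number far more than by label, and its log2 fold change was 0.13 (SE 1.31). The SOXD gene Sox13 had 63 and 5 counts in the neuron libraries, against 13 and 10 counts in the proliferating libraries. The median log2 fold change of Sox12 and Sox13 was -0.44, against 0.09 for all genes.

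Sox2 and Sox1 lie on the same strand inside long noncoding genes, Sox2ot and Sox1ot. Sox2 (chromosome 3, 34650405 to 34652461 in mm10, plus strand) shares no annotated exon with Sox2ot, which had 109 and 17 counts in the neuron libraries, against 15 and 8 counts in the proliferating libraries. Sox2ot had 33.6 and 27.5 CPM in the neuron libraries, against 51.3 and 13.0 CPM in the proliferating libraries, so the groups overlapped. Sox1ot, which lies around Sox1 (chromosome 8, 12395295 to 12400126, plus strand), had 84 and 14 counts in the neuron libraries, against 3 and 0 counts in the proliferating libraries. Unlike Sox1 it was higher in both neuron libraries, at 25.9 and 22.7 CPM in the neuron libraries against 10.3 and 0 CPM in the proliferating libraries, where the largest count was 3. Its log2 fold change was 2.64 (SE 1.63, adjusted p = 1.0 in edgeR). Sox21 (chromosome 14, 118233232 to 118237030) and Sox4 (chromosome 13, 28948919 to 28953713) overlap exons of noncoding genes on the opposite strand, as do Sox8 (chromosome 17, 25565892 to 25570686) and Sox5 (chromosome 6, 143828425 to 144781977). Sox1 shares exonic bases with Gm25239 on its own strand, which counting by strand would not separate. Whether counting used strand is not given in the sources, so reads on the shared exonic bases could not be told from those of the partners. Of the partners that share exonic bases, only Gm4675, beside Sox21, was found by symbol among the gene rows. It had 7 and 1 counts in the neuron libraries, against 0 and 2 counts in the proliferating libraries.

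Genes around the family were taken list by list, and the lists were chosen with earlier results of these data known. Of 25 partners and progenitor targets of SOX2, 18 were tested and 0 were called in either direction, with group alone or with the library number. Their median log2 fold change with group alone was -0.75, against 0.09 for all genes. Within both numbers 8 of the 18 had lower CPM in the neuron library and 2 had higher CPM, against 26.3% and 26.4% of tested genes. The most abundant of them were Nes, an intermediate filament of progenitors (-0.42, SE 1.02), Chd7, a chromatin remodeller that binds SOX2 in neural stem cells (-0.57, SE 1.00), and Fabp7, a fatty acid binding protein of radial glia (-1.69, SE 1.14). Nes had 2390 and 210 counts in the neuron libraries, against 185 and 498 counts in the proliferating libraries, and Chd7 had 1582 and 282 counts in the neuron libraries, against 273 and 367 counts in the proliferating libraries. Fabp7 had 99.0 and 286 CPM in the neuron libraries, against 325 and 1011 CPM in the proliferating libraries.

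Of 22 neuronal genes placed downstream of or beside SOXC proteins, 20 were tested. In edgeR 0 were called with group alone, while 3 were lower and 0 higher with the library number. Of all tested genes, that fit called 0.13% lower and 0.364% higher. Nhlh1, a transcription factor of young neurons, had 21 and 0 counts in neuron libraries 1 and 2, against 77 and 20 counts in proliferating libraries 1 and 2. With the library number it fell by 5.44 in log2 units (SE 0.93, edgeR adjusted p = 5.73e-05). Within number 1, where neither count was 0, it had 6.48 CPM in the neuron library against 263 CPM in the proliferating library. Because of the 0, no ratio can be given within number 2. Stmn2, a tubulin-binding protein of growing axons, had 36 and 3 counts in the neuron libraries, against 24 and 78 counts in the proliferating libraries, and fell by 3.5 (SE 0.79, edgeR adjusted p = 0.00502). Ebf1, another factor of young neurons, had 46 and 13 counts in the neuron libraries, against 33 and 139 counts in the proliferating libraries, and fell by 3.1 (SE 0.69, edgeR adjusted p = 0.00499). All 3 thus had lower CPM in the neuron library of each number, as Sox4 did. Within both numbers 15 of the 20 had lower CPM in the neuron library and 0 had higher CPM, against 26.3% and 26.4% of tested genes. The list median was -1.02 with group alone, against 0.09 for all genes. The list is not separate from the neuron markers above: 6 of its 20 tested genes (Tubb3, Dcx, Map2, Stmn2, Elavl3 and Elavl4) are among them, 5 of these 6 being among the 15. Tubb3, which SOX4 and SOX11 activate, is added after its values were seen. It had 1482 and 8 counts in neuron libraries 1 and 2, against 237 and 60 counts in proliferating libraries 1 and 2, and was scarcer in number 2 than in number 1 in both groups.

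Of 24 glial and cartilage genes tied to SOXD and SOXE proteins, 10 were tested, with 0 called with group alone. With the library number 2 were lower, against 0.13% of all tested genes. Those 2 were the oligodendrocyte lineage factors. Olig2 had 120 and 7 counts in the neuron libraries, against 68 and 168 counts in the proliferating libraries, and fell by 3.39 (SE 0.68, edgeR adjusted p = 0.00138). Olig1 had 163 and 3 counts in the neuron libraries, against 53 and 59 counts in the proliferating libraries, and fell by 2.66 (SE 0.72, edgeR adjusted p = 0.049), but missed the threshold after the GC correction (edgeR adjusted p = 0.0735). Within both numbers 3 of the 10 had lower CPM in the neuron library and 3 had higher CPM, against 26.3% and 26.4% of tested genes. The list median was -0.33 with group alone, against 0.09 for all genes. Of the 10 tested genes 4 (Gfap, Pdgfra, Olig1 and Olig2) are also among the glia markers, whose other called gene, Aqp4, was higher. Like Olig1, Aqp4 missed the threshold after the GC correction (edgeR adjusted p = 0.231).

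The genes whose pattern over the 4 libraries was nearest to that of Sox2, by Euclidean distance of centred log2 CPM among 7356 protein-coding genes, were Tmem59 (0.126), Sv2c (0.251) and Rab9 (0.284). Tmem59 had 62.6 and 72.8 CPM in the neuron libraries, against 157 and 168 CPM in the proliferating libraries. Nearest to Sox11 were Pigl (0.038), Scnm1 (0.055) and Brox (0.071). SOX genes and genes of low mean level were left out of the search. Pigl had 53 and 10 counts in the neuron libraries, against 5 and 17 counts in the proliferating libraries. Sv2c had 38 and 9 counts in the neuron libraries, against 8 and 20 counts in the proliferating libraries. Such counts are few enough for counting error to exceed these distances. With 4 libraries such nearness describes the values alone.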

How the data were processed

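RNA from 4 libraries of 1 mouse cell line was extracted with TRIzol, treated with DNase, depleted of ribosomal RNA and made into stranded libraries, per the labels' protocols. The authors deposited raw counts per gene and RPKM values for each library. HISAT2, SAMtools, featureCounts and DESeq2 with mm10 are named for making the deposited counts, per the submitters' processing notes, without versions, annotation or strand setting. The deposited RPKM values equal the deposited counts divided by total counts and 1 exon length per gene, within 0.001, for all 4187 genes checked.

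The members and gene lists were chosen with earlier results of these data known. CPM used counts outside 7 rRNA and rRNA-like genes. The main test was edgeR 4.0.16's quasi-likelihood test in R 4.3.3 on the deposited counts, with TMM scaling, filterByExpr (11525 genes kept, all 10 members among them) and group alone, the 4 libraries together, and Benjamini-Hochberg adjustment at 0.05. The edgeR fits with group alone and with the library number were run on simulated counts. All genes shared the same spread between libraries there, and the other statistics were not simulated. Alternatives used DESeq2 1.42.0, limma 3.58.1, other scalings and filters, a GC correction (a 5-df spline on the GC content of the longest GENCODE M21 transcript), the library number as a term and each library left out. Total counts per library ran from 3150354 to 32913243. Intervals of ratios are exact conditional ones at 95%, and counting error is all they cover. The SE of an edgeR log2 fold change was derived from its test. It is the absolute fold change divided by the square root of the F statistic. From each further list the text names up to 4 called genes of largest change or, with none called, the 3 of highest mean level. The values of 1 listed gene are not reported here.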

Additional observations from a re-analysis of the deposited data

Results flagged for a closer look

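Of the SOX genes, 3 (Sox1, Sox5 and Sox6) had opposite directions in the libraries numbered 1 and those numbered 2, which flagged them as differing between the sets. Among all tested genes, 26.3% were lower and 26.4% higher in the neuron library within both numbers, and the remaining genes shared no direction. The log2 ratio of CPM, neuron over proliferating, was 0.19 for Sox1 within number 1, inside counting error (-0.276 to 0.692), and -0.417 within number 2. For Sox5 it was -0.962 within number 1 and 0.507 within number 2, on 10 counts in neuron library 2 and 7 in proliferating library 2. Neither Sox5 ratio was outside counting error. For Sox6 it was -0.99 within number 1 and 1.01 within number 2, each outside counting error. With 1 library per group and number, the difference between the numbers was not tested for any of the 3.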

How the results depend on the processing

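No SOX member was called in any setting. Sox2, Sox21, Sox4, Sox8 and Sox9 kept their sign in all 17 alternatives, with a smallest adjusted p of 0.185 (Sox21). With every library kept, their log2 fold changes ran from -1.37 to -0.50, -1.80 to -0.70, -1.34 to -0.45, -1.57 to -0.61 and -1.48 to -0.62 in that order of genes, and with 1 library left out from -1.74 to -1.03, -2.02 to -1.50, -1.42 to -1.11, -2.15 to -1.09 and -1.77 to -1.23. All alternatives reuse the same libraries, and in these genes both neuron libraries lay below both proliferating libraries. Keeping the sign is therefore no separate support. Same-numbered libraries deviated together from their group means (correlation 0.692), but with 2 pairs and no word in the labels the numbers are not shown to pair them. The fit with the replicate block called 42 genes higher and 15 lower; with the block and DESeq2 size factors these were 43 and 24, with the block and GC correction 27 and 22, and with the block and ribosomal genes set aside, chosen after seeing the data, 58 and 29. In those 4 block fits the SOXC list had 3 lower calls each time, the SOXD and SOXE list 2, 2, 1 and 2, and the SOX2 list 0, 1, 1 and 1 (Pou3f3, Fabp7 and Pou3f3). The fits without the block called 0 genes. Sox1 reversed to 0.149 and 0.431 in limma on log2(RPKM + 0.1) and log2(RPKM + 1), 0.173 with GC correction and 0.239 with GC and block. Sox3 reversed to 0.948 in voom and Sox11 to 0.401 in limma on log2(RPKM + 1). Sox6 reversed to -0.0384 with DESeq2 size factors, -0.155 with library totals, -0.0245 in DESeq2, -0.427 and -0.247 in limma on RPKM with 0.1 and 1 added, -0.401 with GC correction, -0.0248 and -0.197 with the block and DESeq2 size factors or GC, and -0.00724 with ribosomal genes set aside. Leaving out 1 library moved Sox1 between -0.651 and 0.546, Sox3 between -7.87 and 4.12, Sox11 between -0.749 and 0.17, Sox5 between -1.02 and 0.685, and Sox6 between -0.637 and 0.759. The cause of these reversals was not tested. The median of all genes, 0.09, became -0.04 with DESeq2 size factors, -0.06 in DESeq2, -0.08 with GC correction, -0.03 in limma with 1 added and with ribosomal genes set aside, 0.48 without a filter, 0.24 in voom, -0.12 in limma with 0.1 added, 0.55 without proliferating library 1 and -0.22 without neuron library 1. Depth limits Sox3, with 0 counts in neuron library 2 and 1 in proliferating library 2, and Sox5, with 10 in neuron library 2 and 7 in proliferating library 2.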
